A study of Mus musculus with 8 samples.

Results

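The genes described here are 10 genes, most of them known from tendon cells (tenocytes) or other connective tissue. They are Thbs4, Comp, Mkx, Scx, Tnmd, Angptl7, Chodl, Cilp2, Kera and Egr4. No tendon role is claimed here for Chodl and Egr4. The 10 genes were taken by symbol from the 24630 genes of a table of RNA levels in sorted muscle stem cells. All 10 were found in it. They were chosen by their known roles and by their RPKM values in the old and young libraries of this table, so the difference of the members between the ages is a description, without a test. The cells came from old C57BL/6 male mice aged 22 months (n = 4) and from young C57BL/6 male mice aged 4 months (n = 4), with no transgene or treatment in the labels of either group. Each library held the stem cells of 1 animal, sorted from limb muscle as lacking CD45, CD31 and Sca1 and carrying VCAM. No tendon marker was used in the sort. The comparison asks which transcripts differ with age in stem cells taken at rest.

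Tendon cells form from progenitors that express the transcription factor Scx, and Mkx then maintains the transcription of their collagen genes. Mature tenocytes carry the membrane protein Tnmd and surround themselves with collagen fibres, whose assembly is tuned by small proteoglycans and by pentameric glycoproteins of the thrombospondin family such as Thbs4 and Comp. In muscle these proteins are known best from the junction where fibres meet the tendon.

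The unit of level is RPKM, the reads of a gene divided by its length in kb and by the library's reads in M (the SI prefix mega). The deposited values were rescaled to each library's own total of reads in genes, called library totals below, because the deposited scaling moved the median log2 difference of all tested genes, old minus young, to 0.64, against -0.01 on library totals. Old libraries held 20.1 to 24.9 M reads in genes and young libraries 1.91 to 6.56 M, so depth and age cannot be told apart. Genes known to be silent in muscle, 1414 olfactory and vomeronasal receptors, averaged 0.0163 to 0.0360 RPKM in old libraries and 0.202 to 0.982 RPKM in young libraries on library totals. For a gene 1 kb long, 3 reads were worth 0.121 to 0.149 RPKM in old libraries and 0.458 to 1.57 RPKM in young libraries. Summed markers of satellite cells, the stem cells of muscle, took 11045 to 14080 CPM (reads per M reads in genes) in old libraries and 10323 to 13496 CPM in young libraries. The genes in this sum did not move alike. Of 15 tested, limma called 2 higher (Vcam1, the sorted protein, and Myod1) and 7 lower at an adjusted p under 0.05. Their median log2 difference was -0.35 on library totals and 0.32 on the deposited scaling. Satellite cells are the cell type that the labels name.

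Of the 10 genes, 7 reached the mean of 5 RPKM that a gene needed to enter the fit, and 3 (Scx, Cilp2 and Egr4) did not. In the fit of 5703 genes 6 of the 7 lay past an adjusted p of 0.05 on the higher side and 1 on the lower side, where 12.3% and 12.5% of all tested genes were called. On the deposited scaling the members' calls were 6 higher and 0 lower, where 68.1% and 1.12% of all tested genes were called. The old libraries all lay above the young libraries for 6 of the 7 tested members and below them for 1, against 13.8% and 13.3% of tested genes. Nothing is read from these counts, because the choice of the members used the same contrast.

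The proximal promoters of 4 of the genes are shown because they include a high and a low GC content and the members that hold the E-box CAGATG, a motif bound by basic helix-loop-helix factors. Each is the 250 bases before the RefSeq gene start on GRCm38.p6, on the strand of the gene and 5′ to 3′, with CAGATG in capitals. They lie at chr13:92794819-92795068 (minus strand, Thbs4), chrX:133850758-133851007 (plus strand, Tnmd), chr4:148500463-148500712 (minus strand, Angptl7) and chr16:78930698-78930947 (plus strand, Chodl).
Thbs4: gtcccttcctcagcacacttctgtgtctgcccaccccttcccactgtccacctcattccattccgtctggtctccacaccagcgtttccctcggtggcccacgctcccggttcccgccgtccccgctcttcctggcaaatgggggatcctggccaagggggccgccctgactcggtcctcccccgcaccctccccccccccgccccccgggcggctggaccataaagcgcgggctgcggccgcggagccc
Tnmd: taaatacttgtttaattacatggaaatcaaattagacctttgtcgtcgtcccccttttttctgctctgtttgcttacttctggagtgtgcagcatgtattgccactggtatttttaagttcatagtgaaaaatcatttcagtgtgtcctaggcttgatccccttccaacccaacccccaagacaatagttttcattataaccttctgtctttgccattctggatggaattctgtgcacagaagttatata
Angptl7: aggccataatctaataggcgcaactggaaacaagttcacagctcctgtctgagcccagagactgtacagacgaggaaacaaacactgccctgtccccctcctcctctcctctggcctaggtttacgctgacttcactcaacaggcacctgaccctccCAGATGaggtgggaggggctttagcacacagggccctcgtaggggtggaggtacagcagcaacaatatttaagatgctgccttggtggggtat
Chodl: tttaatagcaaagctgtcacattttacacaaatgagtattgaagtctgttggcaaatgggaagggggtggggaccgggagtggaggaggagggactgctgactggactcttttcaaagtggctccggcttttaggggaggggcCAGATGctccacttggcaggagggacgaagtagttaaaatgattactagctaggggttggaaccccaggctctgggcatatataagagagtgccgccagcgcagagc
The reference held promoters of 7 of the 10 genes, and CAGATG, searched on both strands (CATCTG on the other) within the 250 bases, was found in 2 of them. It lay 93 bases before the start of Angptl7 and 107 bases before that of Chodl. Of all 32851 promoters of the same length, 14.4% held it. GC content was 70.8% for Thbs4, 38.4% for Tnmd, 54.4% for Angptl7 and 52.0% for Chodl, beside a median of 52.4% over all promoters. The 2 genes with the motif went opposite ways with age, as the values below show.

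The transcription factors among the members were Mkx, Scx and Egr4, and of these Mkx alone passed the filter. Mkx, a homeobox factor that maintains tendon collagen transcription, lies at chr18:6934518-7004780 (minus strand, GRCm38, GENCODE M21). Its level on library totals was 22.6, 14.2, 20.8 and 18.4 RPKM in old libraries 1 to 4, against 7.66, 8.66, 9.68 and 7.52 RPKM in young libraries 1 to 4. Every old library lay above every young one, and the log2 difference, old minus young, was 1.08 ± 0.15 (SE). It overlaps the annotated gene AC148004.2 on the same strand, and reads in the shared stretch could belong to either.

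Scx, the basic helix-loop-helix factor that marks tendon progenitors, was close to absent from the reads. It lies at chr15:76457452-76459458 (plus strand) and overlaps Bop1 on the other strand, and since the kit does not mark strand, reads in the overlap cannot be told apart. The old libraries held 9, 5, 4 and 5 reads of it and the young libraries 0, 1, 6 and 3, with the gene length solved from these same values, so that the reads are the smallest whole numbers in that proportion. On library totals these were 0.154 to 0.395 RPKM in old libraries and 0 to 0.806 RPKM in young libraries, where 3 reads of this gene would be worth 0.980 RPKM in the young library with 0 reads. The groups overlap, and at this depth no difference was detectable: the share of reads in old was 0.437 times that in young, with an exact 95% interval of 0.200 to 1.03 that covers counting error only.

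Egr4, a zinc finger factor of the early growth response family, had almost no reads. The gene lies at chr6:85511121-85513589 (minus strand), and its reads were 1, 0, 0 and 1 in old libraries and 5, 1, 9 and 3 in young libraries. Its share of reads in old was 0.0211 times that in young, with an exact 95% interval of 0.00238 to 0.0883 for counting error only. The silent receptor genes above differ between the groups in the same direction, so the part of low-level signal in this ratio was not tested.

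The secreted and membrane proteins held the highest levels of the set. Thbs4, a pentameric thrombospondin of tendon and muscle matrix, lies at chr13:92751590-92794818 (minus strand). Its level was 259, 86.2, 116 and 219 RPKM in old libraries 1 to 4, against 39.6, 46.0, 31.7 and 25.5 RPKM in young libraries 1 to 4 on library totals. The lowest old library still lay above the highest young one, and the means were 170 ± 82.2 and 35.7 ± 8.93 RPKM (SD, n = 4 each). The log2 difference was 2.12 ± 0.32 (SE), and 1.87 to 2.39 when each library was left out in turn. Among the 5703 tested genes, ordered by mean level per length on library totals, Thbs4 stood at rank 279 in old libraries and at rank 1241 in young libraries.

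Comp, the cartilage oligomeric matrix protein and another pentameric member of the thrombospondin family, lies at chr8:70373558-70382066 (plus strand). It had 61.1, 15.6, 22.5 and 35.1 RPKM in old libraries and 8.13, 9.87, 8.53 and 6.16 RPKM in young libraries on library totals. Old library 2 was the lowest of its group and still above all young libraries. The log2 difference was 1.75 ± 0.33 (SE), and 1.41 to 2.05 with each library left out in turn.

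Tnmd, tenomodulin, a membrane protein of mature tenocytes, lies at chrX:133850980-133865577 (plus strand). It had 69.3, 22.4, 29.6 and 43.6 RPKM in old libraries and 11.5, 20.5, 11.7 and 13.8 RPKM in young libraries on library totals. The groups did not overlap, but old library 2 and young library 2 stood close to each other. The log2 difference was 1.37 ± 0.30 (SE).

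Kera, keratocan, a leucine-rich proteoglycan best known from the corneal stroma, lies at chr10:97606879-97613692 (plus strand). Its levels were 102, 38.6, 35.8 and 57.3 RPKM in old libraries and 19.8, 25.7, 13.0 and 14.4 RPKM in young libraries on library totals. Here old library 3, not 2, was the lowest, and the log2 difference was 1.55 ± 0.31 (SE).

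Angptl7, a secreted angiopoietin-like protein, had the highest mean level of the 10 genes in old libraries. The gene, at chr4:148495183-148500460 (minus strand), lies inside Mtor on the other strand. Any reads where exons of both genes overlap could belong to either. Angptl7 had 389, 102, 396 and 361 RPKM in old libraries and 78.3, 44.6, 64.3 and 42.2 RPKM in young libraries on library totals. Old libraries 1, 3 and 4 stood close together and old library 2 stood far below them, though above all young libraries. The log2 difference was 2.29 ± 0.39 (SE), and 2.11 to 2.76 with each library left out in turn.

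Chodl, chondrolectin, a membrane lectin, went the other way. It lies at chr16:78930948-78951733 (plus strand) and had 264, 231, 238 and 169 RPKM in old libraries and 422, 282, 503 and 383 RPKM in young libraries on library totals. Every old library lay below every young one, and the log2 difference was -0.80 ± 0.19 (SE), against -0.11 on the deposited scaling. By mean level Chodl stood at rank 201 in old and rank 89 in young libraries, above every other member in young libraries.

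Cilp2, a matrix protein of the cartilage intermediate layer family, lies at chr8:69880369-69887687 (minus strand), 485.871 kb from Comp. It had 1.28, 0.233, 0.729 and 0.925 RPKM in old libraries and 1.55, 2.30, 1.52 and 0.855 RPKM in young libraries on library totals, from 25 to 111 reads in old and 18 to 43 reads in young. The groups overlap. The pooled share of reads in old was 0.548 times that in young, with an exact 95% interval of 0.435 to 0.694 that covers counting error only and not the spread between animals.

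The deposited scaling gave larger differences in the same direction for the 6 higher members. The log2 difference, old minus young, was 2.80 for Thbs4, 2.40 for Comp, 1.71 for Mkx, 2.03 for Tnmd, 2.97 for Angptl7 and 2.22 for Kera on that scaling.

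**Figure D1:**
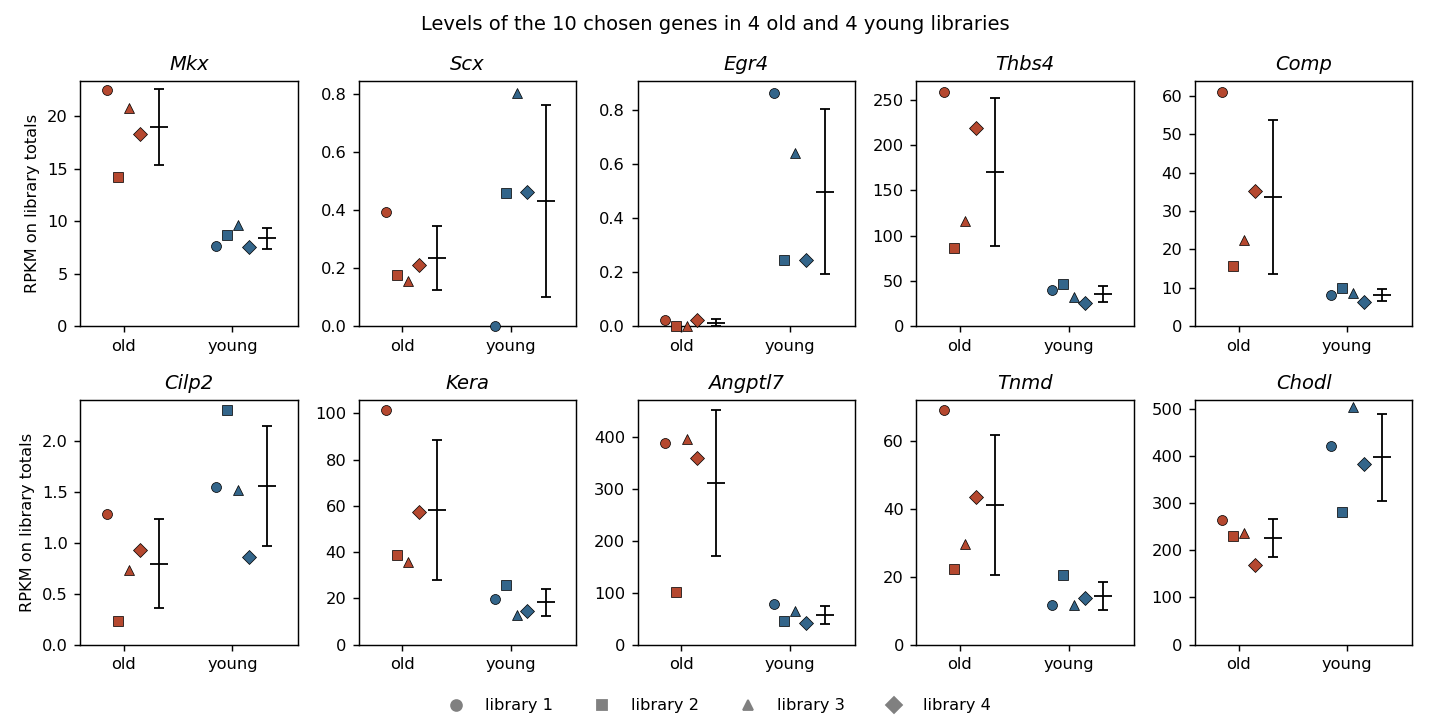
Level of each of the 10 genes in RPKM on library totals (vertical axes), 1 point per library. Thbs4, Comp, Mkx, Tnmd, Angptl7 and Kera lie higher in every old library than in any young one, Chodl and Egr4 lower, and Scx and Cilp2 overlap. Horizontal bars are means and vertical bars the SD of 4 libraries.

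These are bulk libraries, so more cells of a type and more RNA per cell cannot be told apart. The 4 old libraries differed from each other far more in some members than in others. The highest old library was 3.01 times the lowest for Thbs4, 3.91 times for Comp, 3.10 times for Tnmd, 3.87 times for Angptl7 and 2.83 times for Kera, beside a median of 1.37 over tested genes. Between 97.2% and 98.7% of tested genes spread less than these 5. For Mkx the ratio was 1.59 and for Chodl 1.56, and 76.3% and 74.1% of tested genes spread less. In young libraries the spread of the 7 genes was 1.29 to 1.98 times, beside a median of 1.41. These shares are a description, because the choice of the members used values of the same libraries.

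The old libraries fell in much the same order for the variable members. Thbs4, Comp and Tnmd each ran from library 1 through 4 and 3 down to 2, an order that 5.86% of tested genes showed. Old library 1 was highest in 6 of the 7 tested members and old library 2 lowest in 5, while over all tested genes library 1 was highest in 23.7% and library 2 lowest in 35.0%. Kera had library 3 lowest, Angptl7 had library 3 highest, and Chodl had library 4 lowest. Nothing is read from these shares, because the members were chosen with their values in the old libraries known. With 4 old libraries no correlation is given. In the young group library 2, which had the fewest reads in genes at 1.91 M, was the highest for Thbs4, Comp, Tnmd and Kera, but not for Mkx, Angptl7 or Chodl.

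**Figure D2:**
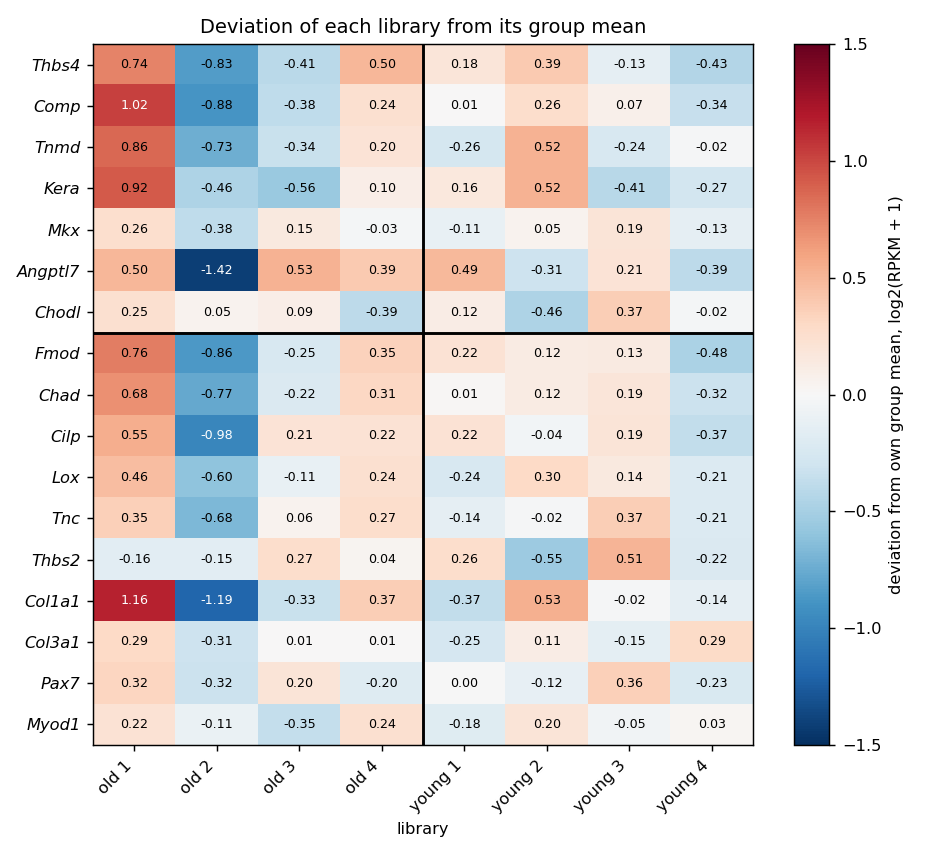
Deviation of each library from the mean of its own age group, in log2(RPKM + 1) on library totals, for the tested members and list genes (rows) and the libraries (columns, old left of young). Old library 1 is above and old library 2 below the group mean for Thbs4, Comp, Tnmd and Kera, whereas Chodl stays above it in library 2.

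Ratios of genes within a library do not depend on the scaling. Comp was 0.236, 0.181, 0.194 and 0.160 times Thbs4 in old libraries 1 to 4, against 0.205, 0.215, 0.269 and 0.241 times in young libraries, so that its highest old ratio was 1.47 times its lowest. Tnmd was 0.267, 0.260, 0.255 and 0.199 times Thbs4 in old libraries, against 0.291, 0.446, 0.370 and 0.539 times in young libraries. Kera was 0.392, 0.448, 0.309 and 0.262 times Thbs4 in old libraries, against 0.409 to 0.565 times in young libraries. The ratios of Comp, Tnmd and Kera to Thbs4 thus varied less over the old libraries than the level of any of these genes did. Angptl7 was 3.41 times Thbs4 in old library 3 and 1.19 to 1.65 times in the other old libraries, against 1.98, 0.971, 2.03 and 1.65 times in young libraries. Mkx was 0.0871, 0.165, 0.179 and 0.0838 times Thbs4 in old libraries, against 0.193, 0.188, 0.305 and 0.295 times in young libraries. Chodl was 0.773 to 2.68 times Thbs4 in old libraries and 6.14 to 15.9 times in young libraries. Against Pax7, the factor that defines satellite cells, Thbs4 was 19.4, 10.5, 9.50 and 24.2 times in old libraries and 2.28, 2.89, 1.40 and 1.74 times in young libraries. This ratio moves with the level of Pax7, which is not given here, as well as with that of Thbs4.

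**Figure D3:**
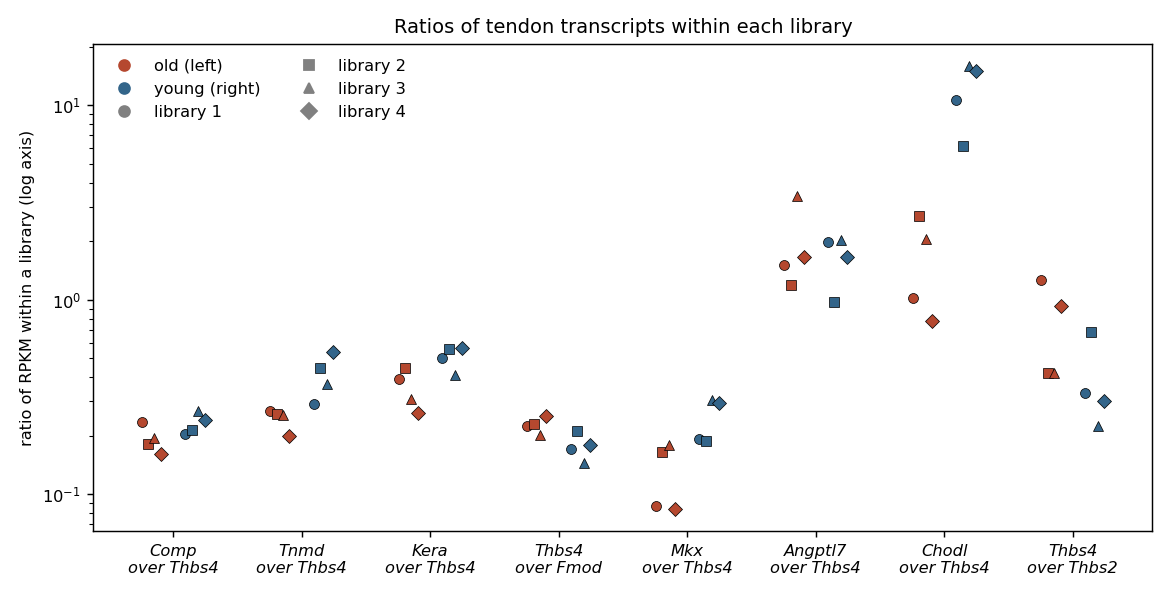
Ratio of members and of other genes to Thbs4, or of Thbs4 to other genes, within each library on a log axis, with old libraries left of young. Comp over Thbs4 lies between 0.160 and 0.236 in the 4 old libraries, whereas Angptl7 over Thbs4 reaches 3.41 in old library 3 and lies between 1.19 and 1.65 in the other old libraries.

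The genes whose pattern over the 8 libraries was nearest to that of a member were found from deviations from the mean of each age group, which leaves the age difference out. The measure is the root mean square difference of log2(RPKM + 1) on library totals, over 5702 other tested genes. Nearest to Thbs4 were Fmod, a collagen-binding proteoglycan of tendon, at 0.16, Comp at 0.17 and Ccdc85b at 0.18, where Thbs4 itself varied by 0.51. Kera stood at rank 22, Tnmd at rank 25, Mkx at rank 976, Angptl7 at rank 2249 and Chodl at rank 5167. These ranks depend on how much a gene varies as well as on its pattern. Mkx itself varied by 0.19 and Angptl7 by 0.63. Nearest to Comp were Ifit2 at 0.11, Fmod at 0.15 and Chad, a cartilage and tendon matrix protein, at 0.16, with Thbs4 at rank 5. Nearest to Mkx were Zfp516 at 0.036, Tbc1d9b at 0.051 and Arhgap17 at 0.054, and nearest to Angptl7 were Dnaja4 at 0.20, Dusp1 at 0.23 and Cilp at 0.24. The within-library ratio of Thbs4 to Fmod was 0.224, 0.230, 0.202 and 0.252 in old libraries and 0.171, 0.212, 0.145 and 0.179 in young libraries.

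Other genes of tendon, none of them among the 10, were taken from 3 lists made by role. Of 14 listed tendon regulators 9 were tested, and 0 were called higher and 5 lower (limma, adjusted p under 0.05), with a median log2 difference of -0.57 beside -0.01 over all tested genes; on the deposited scaling it was 0.10. At an unadjusted p under 0.05 limma-trend had 1 of the 9 higher, and limma-voom on the recovered reads had 2 higher at that level and 0 after adjustment. Egr2 fell on library totals (log2 difference -1.12 ± 0.22, limma adjusted p = 0.0055), and its call was lost on the deposited scaling (-0.43, limma adjusted p = 0.156). Sox9, which marks cartilage and tendon-bone progenitors, fell as well (-1.07 ± 0.24, limma adjusted p = 0.0101), with its call lost on the deposited scaling (-0.42, limma adjusted p = 0.0705). Egr1, an inducer of tendon collagen genes, was called lower on library totals (-0.65 ± 0.17, limma adjusted p = 0.0154) and was 0.04 on the deposited scaling.

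Of 39 listed matrix genes 23 were tested, and 9 were called higher, 5 lower and 9 neither, with a median of 0.47. The higher ones include Fmod, which rose with 1158, 375, 576 and 867 RPKM in old libraries against 232, 217, 219 and 143 RPKM in young libraries on library totals (log2 difference 1.77 ± 0.30, limma adjusted p = 0.0027). The matrix protein Cilp rose by 1.51 ± 0.28 in log2 units (limma adjusted p = 0.0041), the collagen cross-linking enzyme Lox by 1.47 ± 0.22 (limma adjusted p = 0.0015) and Tnc, a matrix glycoprotein of tendon and junction, by 1.35 ± 0.22 (limma adjusted p = 0.0022). Of the collagen genes in the list 5 were tested, and 3 of them fell on library totals. Col3a1 fell (log2 difference -1.75 ± 0.16, limma adjusted p = 0.0002; -1.07 on the deposited scaling), and Col1a1, with 43.0, 7.64, 14.7 and 24.5 RPKM in old libraries against 49.1, 92.6, 62.9 and 57.9 RPKM in young libraries, fell (-1.71 ± 0.40, limma adjusted p = 0.0114; -1.04 on the deposited scaling). Within the old group Col1a1 ran in the same order as Thbs4, with library 1 highest and library 2 lowest. The third, Col6a1, fell by 0.99 (limma adjusted p = 0.0032) but was -0.30 on the deposited scaling, where its call was lost (limma adjusted p = 0.224). Col1a2, the other chain of collagen I, was -0.83 ± 0.33 (limma adjusted p = 0.0872), with overlapping groups and -0.17 on the deposited scaling, and Col5a2 was -0.12 ± 0.11 (limma adjusted p = 0.449), against 0.55 on the deposited scaling. Sparc, a collagen-binding protein, fell by 1.38 (limma adjusted p = 0.0007), and was -0.68 on the deposited scaling. The ratio of Thbs4 to Col1a1 was 6.02 to 11.3 in old libraries and 0.441 to 0.807 in young libraries.

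Of the tendon cell markers, 12 had a row and 8 were tested, with 1 called higher and 1 lower. Chad rose by 1.49 ± 0.26 in log2 units (limma adjusted p = 0.0033). Tppp3, a marker of tendon sheath cells, was called lower at -0.42 ± 0.13 (limma adjusted p = 0.0407) but was 0.27 on the deposited scaling, and its call was lost in 6 of 8 fits with a library left out. Over the 3 lists 10 genes were called higher, 11 lower and 19 neither, of 40 tested, with a median of 0.28. Of all tested genes 12.3% were called higher and 12.5% lower, with a median of -0.01. On the deposited scaling 25 of the 40 were called higher and 4 lower, with a median of 0.92. There 68.1% of all tested genes were called higher and 1.12% lower, with a median of 0.64. Without old library 2 the same 10 genes and 6 more (Aspn, Cpxm2, Fibin, Igfbp6, Ptgis and Thbs1) were called higher, and 10 of the 11 lower ones were kept. Old library 2 was the lowest old library in 33 of the 40 genes and old library 1 the highest in 28. Leaving out the lowest library raises the old mean of a gene, so nothing is read from the 6 added calls. The name tenocyte genes therefore stands for the known roles of most members: Scx was near the floor and the collagen genes Col1a1 and Col3a1 fell, while Tnmd, Mkx and Fmod had reads in every library.

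**Figure D4:**
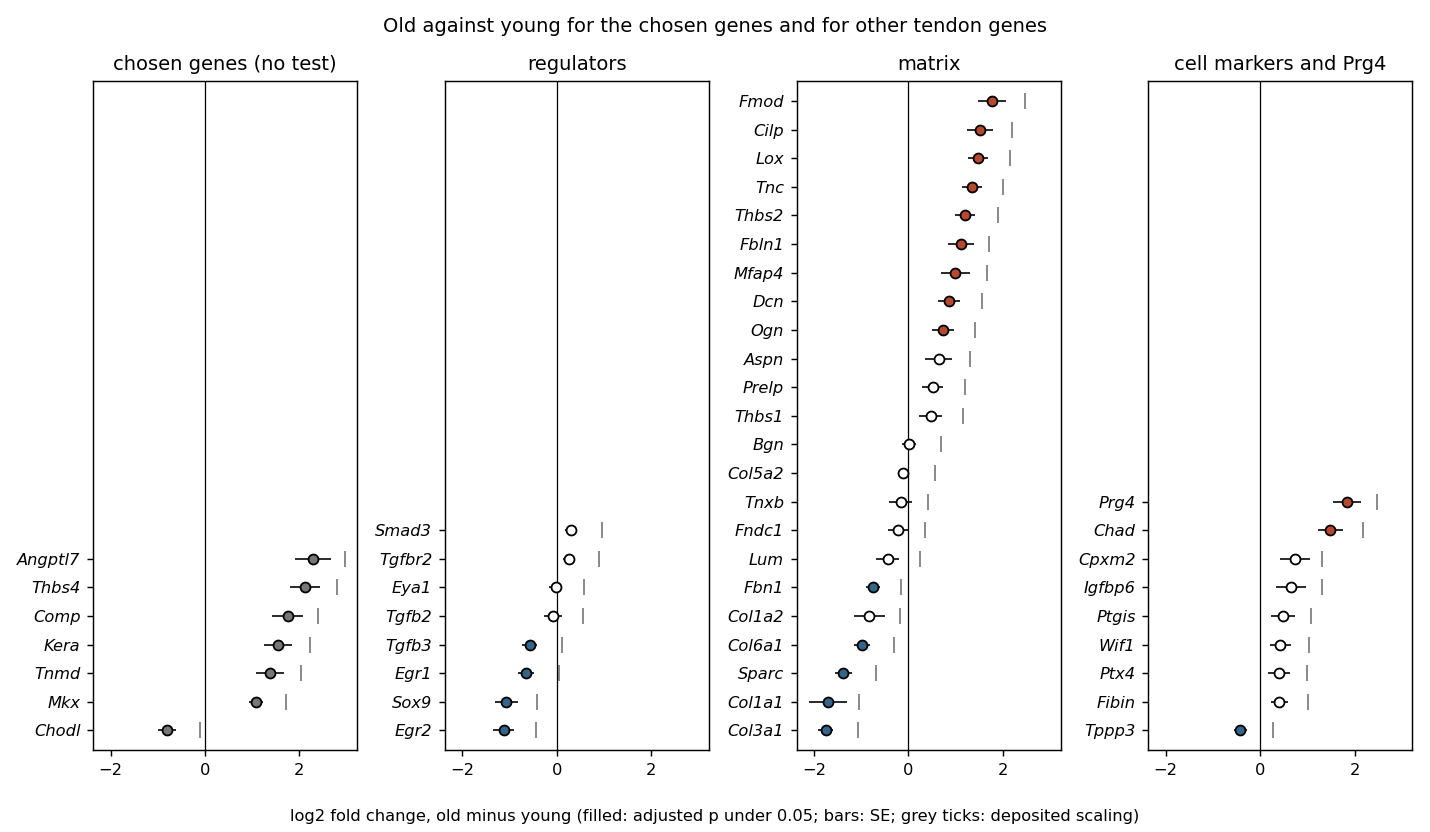
Log2 difference, old minus young, on library totals for the 7 tested members, tested genes of the 3 tendon lists and Prg4, with their standard errors. Filled points passed an adjusted p of 0.05, grey points are the members (no test) and grey ticks give the deposited scaling. Fmod (1.77) lies highest and Col3a1 (-1.75) lowest among the genes of the 3 tendon lists.

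Close relatives of the members are given next. In the thrombospondin family Thbs2 rose by 1.20 ± 0.21 in log2 units (limma adjusted p = 0.0032), with 205, 206, 276 and 236 RPKM in old libraries against 119, 67.4, 141 and 84.9 RPKM in young libraries on library totals, and its highest old library was 3, not 1. Thbs1 was 0.47 ± 0.24 (limma adjusted p = 0.179), and was called higher on the deposited scaling (1.16, limma adjusted p = 0.0006), and Thbs3 averaged 4.52 ± 1.13 RPKM in old and 4.88 ± 0.313 RPKM in young libraries (SD, n = 4 each). Thbs4 was 1.26, 0.419, 0.421 and 0.927 times Thbs2 in old libraries, against 0.333, 0.682, 0.225 and 0.301 times in young libraries. Beside Angptl7, Angptl2 fell by 0.83 on library totals (limma adjusted p = 0.0041), with its call lost on the deposited scaling (-0.19, limma adjusted p = 0.407). Angptl4 was 0.64 ± 0.29 (limma adjusted p = 0.127), and was called higher on the deposited scaling (1.32, limma adjusted p = 0.0006). Beside Kera, the related proteoglycans Lum and Prelp were -0.44 ± 0.25 (limma adjusted p = 0.212, and 0.24 on the deposited scaling) and 0.51 ± 0.22 (limma adjusted p = 0.116), and Prelp was called higher on the deposited scaling (1.20, limma adjusted p = 0.0009). Cnmd, the relative of Tnmd in cartilage, averaged 0.390 ± 0.109 RPKM in old and 0.400 ± 0.288 RPKM in young libraries (SD, n = 4 each).

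Markers of other cell types were summed per library, in CPM on library totals, to show what else moved beside the members. Some lists share genes, so their sums are not independent. Pdgfra and Clec3b are both tendon cell markers and fibro-adipogenic markers, and Lum and Mfap5 are both matrix genes and fibro-adipogenic markers. Of cartilage, 16 genes were in the table and Prg4, lubricin of joint and tendon surfaces, was the only one tested. It rose by 1.84 ± 0.29 in log2 units (limma adjusted p = 0.0021), while the cartilage-defining genes were low in both groups. Acan had 0.00538 to 0.0322 RPKM in old and 0.350 to 0.696 RPKM in young libraries, and Col2a1 had 0.0871 to 0.158 RPKM in old and 0.498 to 0.990 RPKM in young libraries, without overlap and with old lower, as for the silent receptor genes. Summed cartilage markers were 112 to 237 CPM in old and 94.0 to 163 CPM in young libraries. Prg4, with 9566 reads in old and 426 in young libraries, made up a larger share of this sum in old libraries. Summed tendon regulators were 3350 to 4820 CPM in old and 5654 to 7592 CPM in young libraries, without overlap (exact two-sided permutation p = 0.0286, the smallest that 70 assignments allow, and 0.269 adjusted over 11 lists), with a log2 difference of -0.65, against 0.04 on the deposited scaling. Egr1 held most of the reads of this sum, 304905 in old and 92901 in young libraries. Egr2 came next with 21210 and 9646 reads, so the sum mainly restates Egr1. Summed tendon matrix genes were 7361 to 14489 CPM in old and 8850 to 9921 CPM in young libraries (exact permutation p = 0.314), and summed tendon cell markers were 359 to 744 CPM in old and 338 to 429 CPM in young libraries (exact permutation p = 0.0857).

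Fibro-adipogenic markers were 3434 to 5333 CPM in old and 4298 to 5810 CPM in young libraries, with 1 of 9 tested called higher (the chemokine gene Ccl11, log2 difference 1.38 ± 0.14, limma adjusted p = 0.0003) and 1 lower. Endothelial markers were 251 to 632 CPM in old and 624 to 791 CPM in young libraries, leukocyte markers 59.7 to 210 CPM in old and 146 to 379 CPM in young libraries, and pericyte and smooth muscle markers 982 to 1869 CPM in old and 1520 to 1865 CPM in young libraries. Schwann cell markers were 370 to 620 CPM in old and 585 to 751 CPM in young libraries, and muscle fibre markers 138 to 776 CPM in old and 408 to 815 CPM in young libraries. Exact permutation p-values of these 6 sums ran from 0.0571 to 0.457, and 0 of 11 sums passed an adjusted p of 0.05, with 1, the tendon regulators, under 0.05 unadjusted. Gene by gene, limma called 0 of 8 tested endothelial and 0 of 3 tested leukocyte markers (5 and 1 were lower at an unadjusted p under 0.05, and limma-voom called 1 and 0 lower after adjustment). It called 2 of 8 pericyte and smooth muscle, 1 of 4 Schwann cell and 1 of 6 muscle fibre markers lower, and of 15 satellite cell markers 2 higher and 7 lower. No listed marker of these types was at 0 in every library. Old library 2, lowest for most variable members, was lowest in 8 of the 11 sums and highest in the satellite cell sum. That sum includes Vcam1, the surface protein used in the sort. Vcam1 had 629 RPKM in old library 2 and 369 to 468 RPKM in the other old libraries. Of the old libraries, Pax7, Calcr, Cdh15 and Heyl were lowest in library 2. Fgfr4 and Myod1 were neither highest nor lowest there. Whether the amount of other cells in a library has a part in the order of Thbs4, Comp and Tnmd was not tested.

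**Figure D5:**
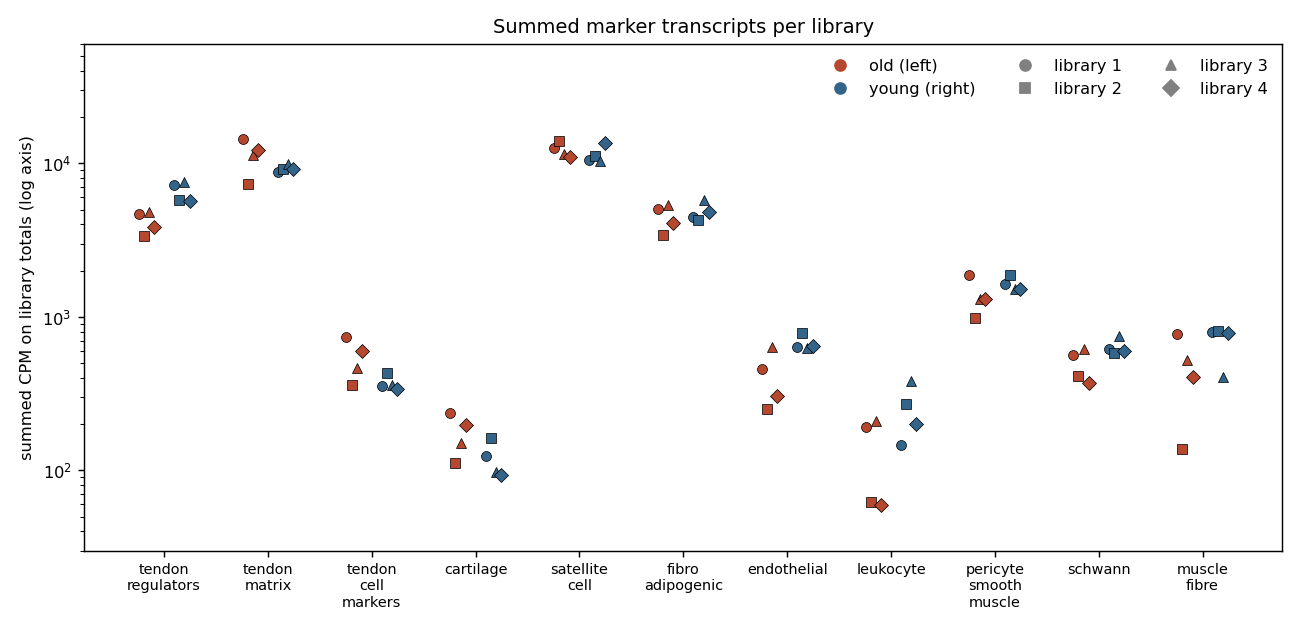
Summed markers of 11 lists in CPM on library totals (log axis), with old libraries left of young. Old library 2 is the lowest old library in 8 lists and the highest in the satellite cell list, which includes Vcam1, itself highest in that library.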

How the data were processed

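Messenger RNA of sorted muscle stem cells of 4 old and 4 young mice was measured in 8 libraries. The authors deposited 1 table of 24630 genes in RPKM. Per the submitters' processing notes the tools were STAR, Trim Galore, Subread, featureCounts and edgeR, and the builds mm10 and GRCm38. Versions and settings: not given in the sources used here. With annotated exon lengths, the deposited values of 18798 genes were whole multiples of what 1 read is worth (within 0.001 of a whole number), so reads were recovered. For 4663 genes, Mkx, Scx, Chodl and Kera among them, the length was solved from the values, which makes no test, and 1169 genes had no reads. In 8293 genes the values show a small positive number in place of 0. RPKM were then rescaled to each library's total of recovered reads. limma 3.58.1 (limma-trend, R 4.3.3) was run on log2(RPKM + 1) over genes with a mean deposited RPKM of at least 5, with Benjamini-Hochberg adjustment at 0.05; log2 differences understate low genes. A simulation over 5703 genes recovered 92% of 2-fold and 24% of 1.5-fold changes, with 14 unchanged genes called. It drew reads with the same dispersion of 0.04 for every gene. Recovery was not simulated for genes that vary more, such as Thbs4 and Comp, whose SD in old libraries was 48.3% and 59.7% of the mean.

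The 10 genes, the lists and the tests were chosen with earlier results of these data known. Named genes are the 10, up to 4 called genes of each list in each direction by size, their relatives, and the 3 nearest genes to Thbs4, Comp, Mkx and Angptl7; 1 list gene is in the counts but is not reported here. Depth ranged from 1.91 to 24.9 M reads in genes, and floors and intervals cover counting error only, since amplified reads are not independent molecules. The label numbers did not pair old with young animals. Alternatives tried were the deposited scaling, other pseudocounts and filters, a replicate block, leaving out libraries and, added after seeing the data, limma-voom on recovered reads. Promoters are from RefSeq (GRCm38.p6), coordinates from GENCODE M21.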

Additional observations from a re-analysis of the deposited data

Results flagged for a closer look

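Of 42 groups of 4 libraries examined, 3 held a library far from the other 3 of its group, where chance gives about 1 in 20. Angptl7 had 102 RPKM on library totals in old library 2, well below the other 3 old libraries. Summed endothelial markers reached 791 CPM in a young library, above the other 3 young libraries. Summed muscle fibre markers were as low as 408 CPM in a young library, below the other 3.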

How the results depend on the processing

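On the deposited scaling 3882 genes were called higher and 64 lower, against 701 and 714 on library totals, and 25 and 4 tendon-list genes against 10 and 11; the cause is the scaling, which moves all genes up. Under it the log2 difference of Egr1 was 0.044, of Tppp3 0.27, of Heyl 0.0079 and of Pmp22 0.088, each called lower on library totals. Without young libraries 1 and 2 there were 453 genes higher, and 7 tendon-list genes lower. Genes called lower numbered 2280, 384 and 8166 with a filter at 1 RPKM, at 10 RPKM and with none, where higher calls numbered 789, 605 and 873. Silent receptor genes were also lower in old libraries, and the part of low-level signal in these lower calls was not tested. With each library left out in turn, higher calls ranged from 475 to 795 and lower calls from 476 to 802, and tendon-list calls from 7 to 16 higher and 8 to 11 lower; without old library 2 alone, tendon-list calls were 16 higher. The cause of that rise was not tested. limma-voom called 692 genes higher and 743 lower, and 9 and 11 tendon-list genes. The replicate block gave 635 higher and 656 lower; label numbers did not pair the samples (correlations of deviations -0.16, -0.06, 0.38 and -0.23), and 2 of 8 libraries correlated best with their own number. 114 values for members stayed within their spread, and the 6 that did not were all on the deposited scaling. The 3 nearest genes to Thbs4, Comp and Angptl7 were the same on that scaling, and Tdp2 took the place of Tbc1d9b for Mkx. The quasi-likelihood and DESeq2 alternatives were not run because the table holds RPKM. Depth limits Scx, Egr4 and Cilp2 most.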

Other observations

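Markers of the satellite cells themselves moved in both directions with age on library totals. Myod1, the myogenic determination factor, rose (log2 difference, old minus young, 0.78 ± 0.15, limma adjusted p = 0.0055), and Vcam1, the surface protein used in the sort, rose (0.79 ± 0.20, limma adjusted p = 0.0162, lost in 1 of 8 fits with a library left out). Calcr, a receptor known from quiescent stem cells, fell to 17.8 ± 3.53 RPKM in old libraries, against 52.8 ± 7.76 RPKM in young libraries (SD, n = 4 each; log2 difference -1.53 ± 0.16, limma adjusted p = 0.0003). Fgfr4 and Cdh15 fell as well (-0.86 ± 0.11 and -0.86 ± 0.16, limma adjusted p = 0.0006 and 0.0041), but on the deposited scaling both were -0.18 and their calls were lost (limma adjusted p = 0.440 and 0.456). Among markers of other cell types, Col15a1 fell to 3.96 ± 0.724 RPKM in old libraries, against 11.4 ± 0.442 RPKM in young libraries (SD, n = 4 each; limma adjusted p = 0.0003).

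Other relatives of the members stayed below the filter. Egr3 had 1.19 to 3.45 RPKM in old and 5.83 to 7.08 RPKM in young libraries. The Irx genes, homeobox relatives of Mkx, had at most 0.173 RPKM in old and 0.757 RPKM in young libraries, and Tcf15, the relative of Scx, at most 0.178 RPKM in old and 0.534 RPKM in young libraries. Layn, the relative of Chodl, had 1.20 to 1.98 RPKM in old and 1.08 to 2.82 RPKM in young libraries.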
